A study of Homo sapiens with 12 samples.

Results

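The mRNA of 10 receptor tyrosine kinases outside the ErbB, insulin receptor and Eph families was followed in BT474 cells: FGFR1, FGFR2, FGFR3, FGFR4, MET, RET, AXL, TYRO3, DDR1 and DDR2. They were taken by symbol from a table of read counts, where each matched 1 row among 27814 genes with a symbol, and 10 of the 10 passed the filter on low counts that left 16208 genes for testing. BT474 is an established breast cancer line that carries extra copies of the HER2 gene and expresses hormone receptors. Bulk RNA sequencing was run on 12 libraries in 4 groups of 3 replicates. The groups were parental cells in DMSO, the solvent; cells labelled as knockout (KO) for BRD8, a bromodomain protein of a chromatin-modifying complex, in DMSO; parental cells given 200 nM neratinib for 4 h; and KO-labelled cells given 200 nM neratinib for 4 h. Neratinib is an irreversible inhibitor of HER2 and related ErbB kinases. The labels say neither whether the KO line is 1 clone or a pool, nor where the gene was edited, nor how long DMSO was left on. Nor is the origin of the replicates given (separate cultures or repeats of 1 culture), so p-values measure the spread between these libraries, which may be technical.

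Receptor tyrosine kinases are membrane proteins that an outside ligand brings together, after which the paired kinase domains phosphorylate each other and recruit adaptors that start RAS-ERK and PI3K-AKT signalling. FGFR1 to FGFR4 bind fibroblast growth factors with heparan sulphate, MET binds hepatocyte growth factor, and RET binds GDNF-family ligands through a GFRA co-receptor. AXL and TYRO3 belong to the TAM family and bind GAS6 and protein S, while DDR1 and DDR2 bind collagens. In HER2-driven breast cancer cells such receptors are studied because several of them feed the same downstream pathways when HER2 is blocked.

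The libraries held 32471198 to 44726160 counts assigned to named genes. Levels are given as CPM, the count scaled to a common library size with TMM factors, and a gene is called when its adjusted p (Benjamini-Hochberg, over the genes tested) is below 0.05 in the quasi-likelihood test of edgeR. The 14 luminal and HER2 markers each had counts in every library and summed to 17818 to 20828 CPM, so the defining markers of the labelled line were present. The sum hides changes of single markers. Between genotypes in DMSO, 8 were lower and 6 higher in KO-labelled cells, beside 35.6% and 36% of all genes. Among them TFF1 was at 42.1 against 184.4 CPM and KRT8 at 3896 against 3514 CPM. Basal epithelial markers summed to 55.9 to 58.5 CPM in parental DMSO, 43.2 to 44.4 CPM in parental neratinib, 65.8 to 68.1 CPM in KO DMSO and 68.3 to 72.1 CPM in KO neratinib libraries, with none of the 8 at 0 counts in any library. Blood, immune and endothelial markers summed to 15.7 to 16.6 CPM in parental DMSO, 20.7 to 23.0 CPM in parental neratinib, 39.8 to 41.6 CPM in KO DMSO and 44.2 to 48.6 CPM in KO neratinib libraries, with 1 to 5 of the 12 at 0 counts. The part of either list in the differences between groups was not tested. In DMSO, BRD8 mRNA averaged 64.1 CPM in the parental group and 67.4 CPM in the KO group (log2 fold change 0.07, adjusted p = 0.0189), and under neratinib 235.6 and 156.1 CPM (-0.59, adjusted p = 3.16e-27). The 2 treatments go in opposite directions, and an edit need not lower mRNA, so these levels do not settle the knockout label. Replicate 3 of the KO group in DMSO stood apart: 9 genes had at least 20 counts there and at least 4 times the CPM of the other 2 libraries of its group, against 0 or 1 gene in each of the other 11 libraries. AXL was 1 of those 9, and its results are given with and without that library. In bulk RNA, fewer cells expressing a gene and less RNA per cell cannot be told apart.

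Set against the length of their exons, the receptors covered a wide span of levels in parental cells in DMSO. DDR1 and FGFR4 led, with 36.5% and 38.4% of the summed CPM per kb of the 10 genes. RET followed with 8.66%, FGFR3 with 5.45%, FGFR1 with 5.32%, MET with 4.06% and TYRO3 with 1.25%. FGFR2, DDR2 and AXL lay at 0.240%, 0.122% and 0.0144%. The lengths are the union of exons in protein-coding transcripts of GENCODE 29, and the annotation used for counting was not given in the sources used here. They were 7.252 kb for DDR1 and 3.689 kb for FGFR4. In plain CPM DDR1 was at 391.9 and FGFR4 at 209.4, so their order and the shares depend on the lengths used.

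**Figure D1:**
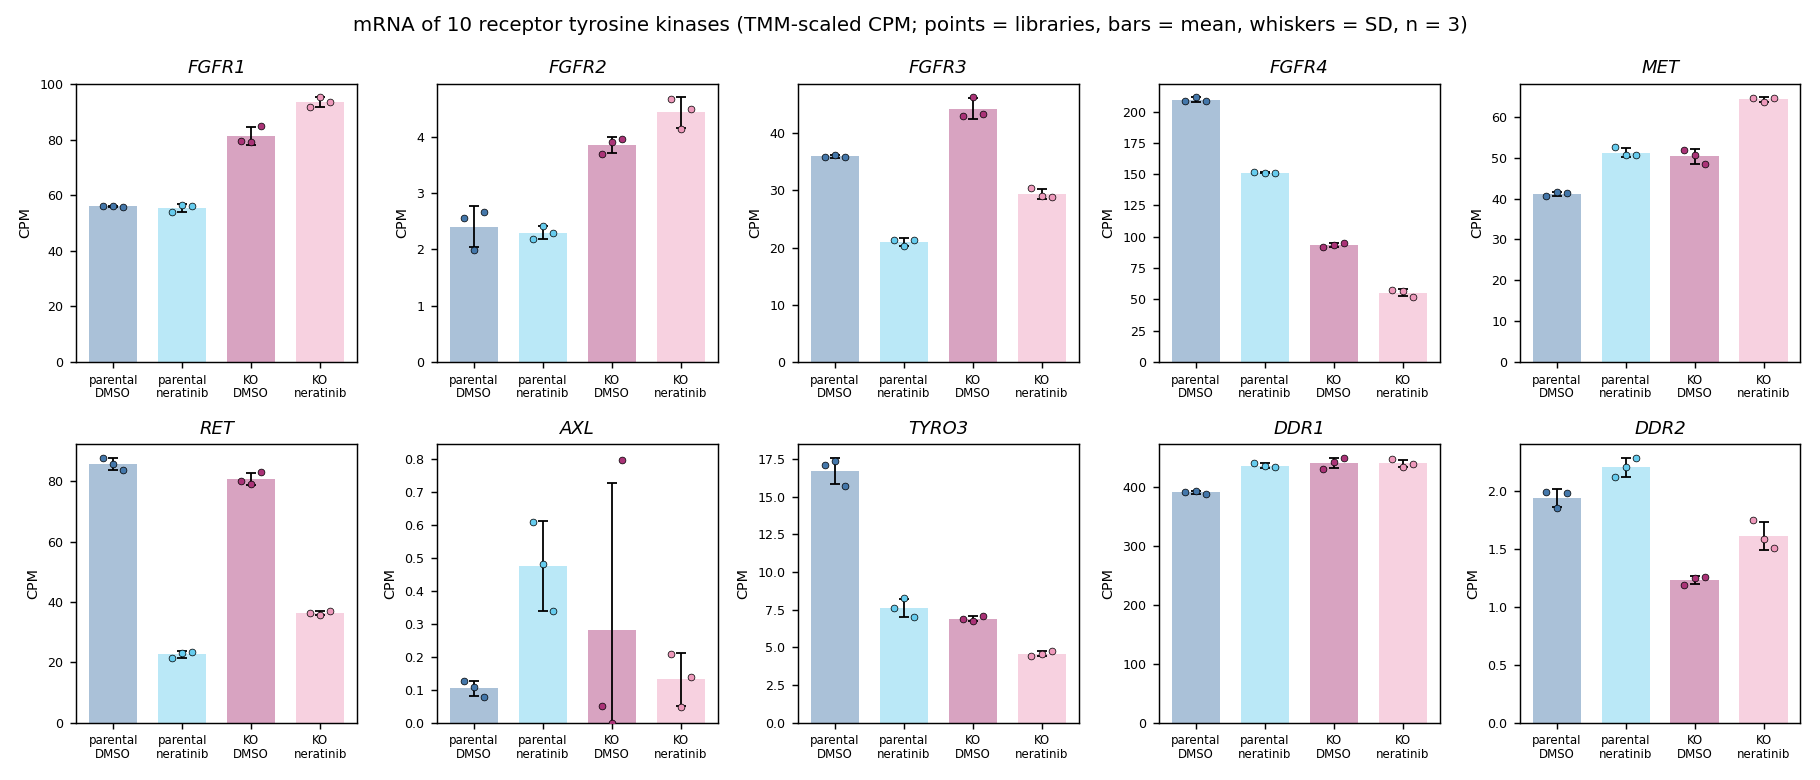
TMM-scaled CPM of the 10 receptor genes in the 4 groups; points are libraries, bars are means and whiskers are SD over 3 libraries, and each vertical axis has its own scale from 0. RET drops from 85.7 to 22.6 CPM in parental cells with neratinib, FGFR4 is lower in both KO groups than in both parental groups, and 1 library sets the AXL mean of the KO group in DMSO.

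In parental cells, neratinib changed 6 of the 9 receptor genes other than AXL: MET and DDR1 rose, and RET, TYRO3, FGFR3 and FGFR4 fell. AXL, called higher as well, passed the filter on low counts through the neratinib libraries where it was high, and so is left out of this count. RET and TYRO3 changed by 2-fold or more. Among all genes tested 80.7% were called and 20.8% were called with a change of at least 2-fold, so the share of receptors called is near the background. The median log2 fold change was -0.08 over the 9 receptors and 0.04 over all genes.

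In KO-labelled cells, neratinib changed 7 of the 10, against a background of 77.2%. MET, FGFR1 and DDR2 rose, while RET, FGFR4, FGFR3 and TYRO3 fell. RET was the 1 receptor past 2-fold, where 14.7% of all genes were. With library totals in place of TMM scaling the split was 5 higher and 4 lower, because FGFR2 and DDR1 were then called higher. The median was -0.29 over the 10 receptors and -0.00 without AXL, beside 0.02 over all genes.

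Between genotypes, 9 of the 10 receptors differed in DMSO, where 71.6% of all genes were called. FGFR1, FGFR2, FGFR3, MET and DDR1 were higher in KO-labelled cells, and FGFR4, TYRO3, DDR2 and RET were lower. FGFR4 and TYRO3 differed by at least 2-fold, against 12.4% of all genes. Under neratinib 8 of the 9 receptors other than AXL differed, again with a background of 71.6%: FGFR1, FGFR2, FGFR3, MET and RET were higher, and FGFR4, TYRO3 and DDR2 were lower. AXL, called lower, was again admitted by the group where it was high. FGFR4 passed 2-fold there, where 11.2% of all genes did. The medians over the 9 receptors were 0.17 in DMSO and 0.32 under neratinib, beside 0.00 and -0.02 over all genes.

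The comparisons share groups of libraries, so they are not independent of each other. The difference between the neratinib responses of the 2 genotypes was tested as an interaction, and 7 of the 10 receptors passed, against 46.1% of all genes. It was positive for RET, TYRO3, FGFR1 and FGFR3 (21.5% of all genes) and negative for AXL, FGFR4 and DDR1 (24.6%). AXL alone among the 10 passed 2-fold (-3.12), as did 3.27% of all genes, but without replicate 3 of the KO group in DMSO its interaction was 0.058 (adjusted p = 0.932) and 6 of the 10 passed. AXL was also admitted by the filter through that library and the parental neratinib libraries where it was high, so its call adds nothing to the count. For MET, FGFR2 and DDR2 the interaction was not called, with 95% intervals on the log2 scale of -0.06 to 0.12, -0.05 to 0.61 and -0.21 to 0.62. Libraries of the 2 groups did not overlap for 8 receptors, AXL included, with neratinib in parental cells (81.3% of all genes) and for 8 in KO-labelled cells (78% of all genes). They did not overlap for 9 receptors between genotypes in DMSO (72.8%) and for 9, AXL included, under neratinib (72.6%).

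**Figure D2:**
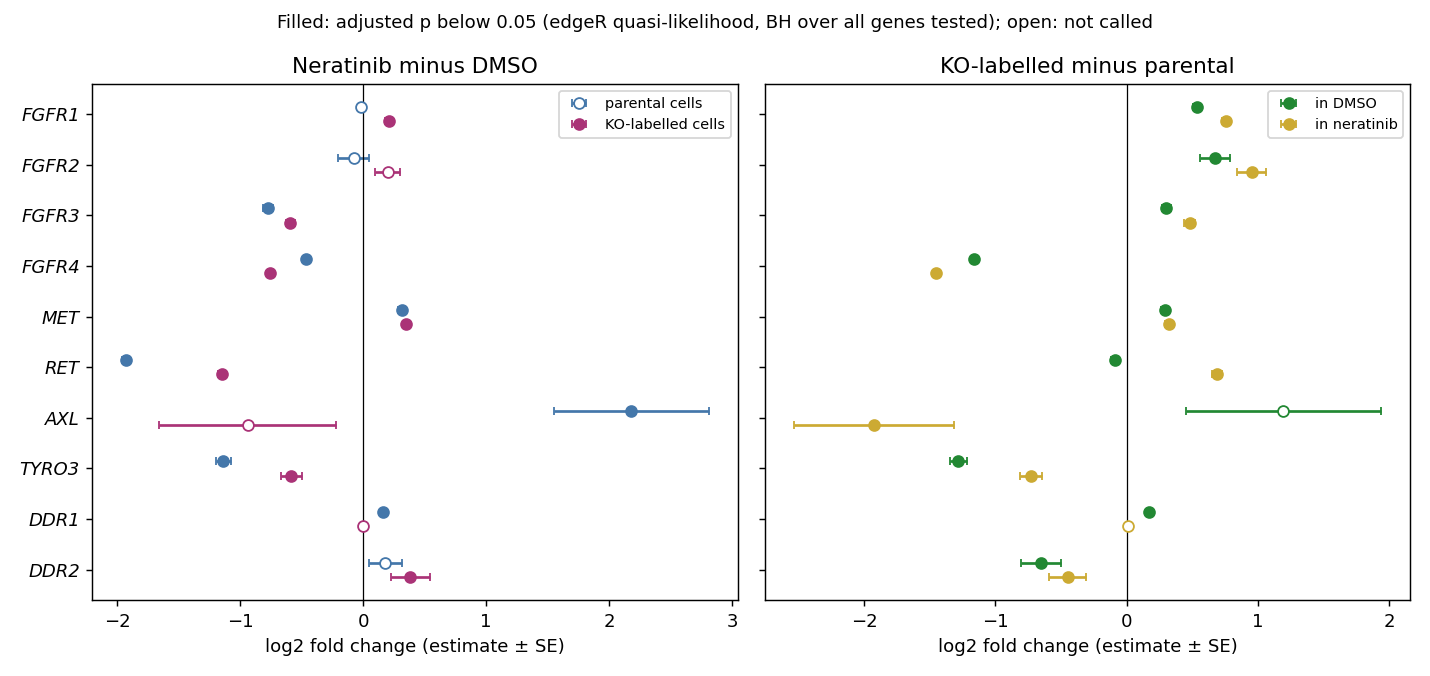
Log2 fold change of each receptor gene with its SE: neratinib against DMSO in each genotype on 1 panel, and KO-labelled against parental cells in each treatment on the other. Filled points are called and open points are not; RET, TYRO3, FGFR3 and FGFR4 lie left of 0 for neratinib in both genotypes, and MET lies right of 0 in all 4 comparisons.

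RET, the signalling receptor for GDNF-family ligands, lies at chr10:43077027-43130351 on the plus strand of GRCh38. It stood at 87.8, 85.6 and 83.7 CPM in parental cells in DMSO and at 21.3, 23.1 and 23.3 CPM after neratinib. In KO-labelled cells it stood at 80.0, 79.1 and 82.9 CPM in DMSO and at 36.3, 35.6 and 37.0 CPM after neratinib. Every neratinib library lay below every DMSO library, and the KO-labelled libraries lay above the parental ones under neratinib but below them in DMSO. The fall was 3.81-fold in parental cells (log2 fold change -1.93, SE 0.035, adjusted p = 5.97e-39) and 2.22-fold in KO-labelled cells (-1.15, SE 0.033, adjusted p = 2.05e-31). The interaction was 0.78 (SE 0.049, adjusted p = 2.31e-17), a smaller fall in the KO-labelled cells. Between genotypes, RET was 1.06-fold lower in KO-labelled cells in DMSO (log2 fold change -0.09, adjusted p = 0.00505) and 1.61-fold higher under neratinib (0.69, adjusted p = 1.39e-19).

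The GFRA1 co-receptor, which holds GDNF for RET, changed in the other direction. Its libraries had 83, 113 and 82 counts in parental DMSO and 262, 177 and 239 counts after neratinib, against 3, 3 and 2 and then 23, 16 and 20 counts in KO-labelled cells. The mean levels were 2.43 and 5.76 CPM in parental cells and 0.0685 and 0.539 CPM in KO-labelled cells. Thus GFRA1 rose with neratinib in both genotypes (log2 fold changes 1.25 and 2.88, adjusted p = 3.75e-13 and 3.45e-07), while RET fell. It stayed 11-fold lower in KO-labelled than in parental cells under neratinib (95% counting interval 8.38 to 14.5).

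GDNF itself, a secreted ligand, was at 0.139 CPM in parental DMSO and 1.19 CPM in parental neratinib libraries, and at 0.278 and 0.899 CPM in KO-labelled cells. GFRA3, the co-receptor for artemin, was at 0.174 and 0.729 CPM in parental cells and at 0.193 and 0.848 CPM in KO-labelled cells. Each neratinib library lay above each DMSO library of its genotype for both genes. Of all genes, 81.3% in parental and 78% in KO-labelled cells had no overlap, in either direction. Both GDNF and GFRA3 passed the filter on low counts through the neratinib libraries where they were high. That filter makes such a separation likely in itself, so no rise is concluded and their tests are not used. GFRA2 did not pass the filter, with 7 to 19 counts per group, and GFRA4 had 0 counts in each of the 12 libraries.

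Of the 10 RET ligands and co-receptors listed, 7 were tested, but 4 of these (ARTN, PSPN, GDNF and GFRA3) were admitted through neratinib libraries alone, so no count of rises over the list is given. GDF15, the ligand of the GFRAL and RET pair, was higher in KO-labelled cells in both treatments (log2 fold changes 1.33 and 0.83, adjusted p = 1.30e-05 and 0.000684).

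**Figure D3:**
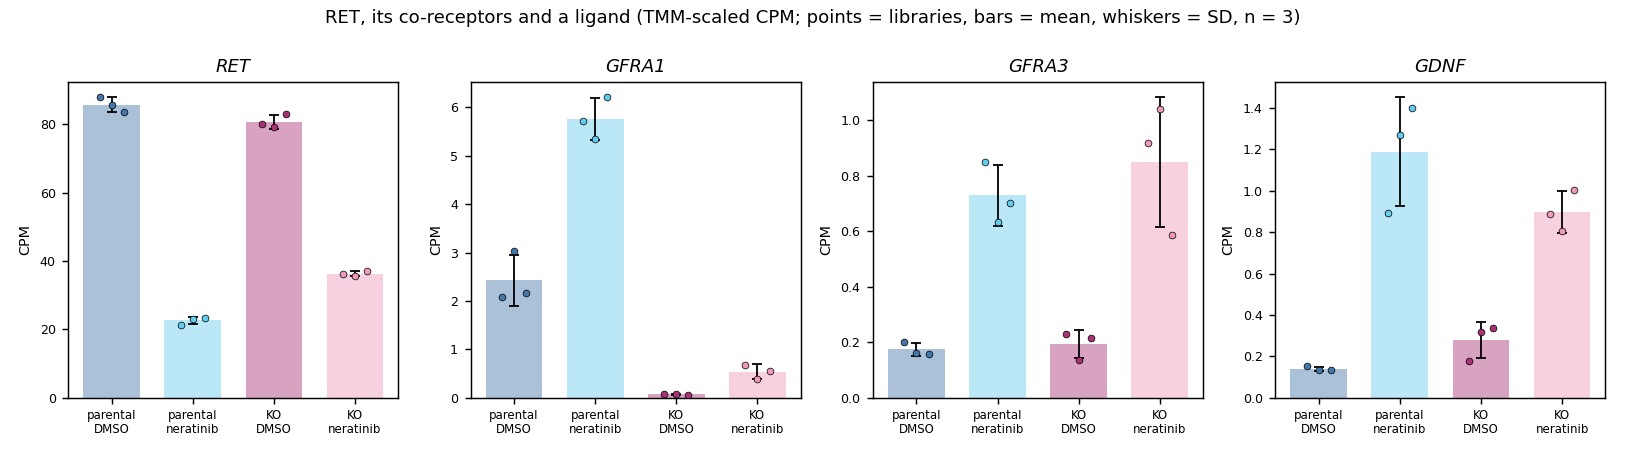
TMM-scaled CPM of RET, the co-receptors GFRA1 and GFRA3, and the ligand GDNF in the 4 groups; points are libraries, bars are means and whiskers are SD over 3 libraries. RET is lower and GFRA1 higher with neratinib in both genotypes, and GFRA1 is at 0.0685 and 0.539 CPM in the KO-labelled groups. GFRA3 and GDNF passed the filter on low counts through the neratinib libraries, so their higher bars there are no test of a rise.

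FGFR4, a receptor that binds endocrine FGF19 with the co-receptor KLB, lies at chr5:177086886-177098144 on the plus strand. It measured 208.1, 211.8 and 208.3 CPM in parental DMSO libraries, 151.9, 150.7 and 151.2 CPM in parental neratinib libraries, 91.9, 93.8 and 94.6 CPM in KO DMSO libraries, and 57.4, 56.4 and 52.1 CPM in KO neratinib libraries. The 4 groups did not overlap, and KO-labelled cells were lowest whatever the treatment. The genotype difference was 2.24-fold in DMSO (log2 fold change -1.16, SE 0.024, adjusted p = 1.98e-36) and 2.74-fold under neratinib (-1.45, SE 0.026, adjusted p = 3.32e-38). Neratinib lowered FGFR4 by 1.38-fold in parental and 1.69-fold in KO-labelled cells (log2 fold changes -0.47 and -0.76, adjusted p = 4.02e-23 and 3.43e-27). The fall was larger in the KO-labelled cells, with an interaction of -0.29 (SE 0.036, adjusted p = 5.49e-09).

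FGFR3, at chr4:1793293-1808872 on the plus strand, also fell with neratinib but was higher in KO-labelled cells. Its values were 35.9, 36.2 and 35.8 CPM and then 21.4, 20.2 and 21.4 CPM in parental cells, and 43.0, 46.4 and 43.3 CPM and then 30.4, 28.9 and 28.8 CPM in KO-labelled cells. The 4 groups did not overlap. The log2 fold changes with neratinib were -0.77 (SE 0.040, adjusted p = 1.39e-21) and -0.59 (SE 0.037, adjusted p = 7.66e-19), with an interaction of 0.18 (SE 0.055, adjusted p = 0.00756). FGFR3 was 1.23-fold higher in KO-labelled cells in DMSO and 1.39-fold higher under neratinib (log2 fold changes 0.30 and 0.48, adjusted p = 3.55e-10 and 1.08e-13).

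FGFR1, the receptor for FGF2 among others, measured 55.9, 56.1 and 55.8 CPM in parental DMSO and 53.9, 56.5 and 55.9 CPM in parental neratinib libraries, which overlapped. In KO-labelled cells it measured 79.4, 79.1 and 84.9 CPM in DMSO and 91.5, 95.3 and 93.4 CPM after neratinib, above each parental library. Neratinib gave a log2 fold change of -0.01 in parental cells (95% interval -0.08 to 0.05, adjusted p = 0.672) and of 0.21 in KO-labelled cells (SE 0.028, adjusted p = 6.91e-09). The interaction of 0.22 was called (SE 0.042, adjusted p = 2.05e-05). The genotype difference was 1.45-fold in DMSO and 1.69-fold under neratinib (log2 fold changes 0.53 and 0.76, adjusted p = 2.90e-20 and 6.12e-26).

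FGFR2 was low, at 2.57, 1.99 and 2.67 CPM in parental DMSO, 2.18, 2.42 and 2.29 CPM in parental neratinib, 3.70, 3.91 and 3.96 CPM in KO DMSO and 4.68, 4.14 and 4.50 CPM in KO neratinib libraries. The parental groups overlapped, and the KO-labelled libraries lay above them. FGFR2 was 1.60-fold higher in KO-labelled cells in DMSO and 1.93-fold higher under neratinib (log2 fold changes 0.68 and 0.95, adjusted p = 1.39e-06 and 5.33e-10). Neratinib gave log2 fold changes of -0.08 in parental cells (95% interval -0.34 to 0.18) and 0.20 in KO-labelled cells (95% interval -0.01 to 0.40, adjusted p = 0.0722), neither of them called. The second was called in 3 of the 20 alternative analyses.

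Among 18 FGF ligand genes 5 passed the filter on low counts, 3 of them (FGF10, FGF17 and FGF22) through neratinib libraries alone, so no count of rises is given. FGF2 had 0 counts in 3 groups and 4 counts in the KO neratinib group. FGF1 was higher in KO-labelled than in parental cells under neratinib, at 1.13 against 0.522 CPM (log2 fold change 1.15, adjusted p = 6.47e-05). In DMSO FGF1 was at 0.981 against 0.295 CPM.

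Of the 16 listed FGF receptor co-receptors and close partners, 12 were tested, and 9 were higher and 1 lower in KO-labelled cells in DMSO, beside 36% and 35.6% of all genes. Their median log2 fold change was 0.51. FGFRL1, a decoy-like receptor without a kinase domain, was at 50.6 against 26.1 CPM (log2 fold change 0.95, adjusted p = 5.87e-25), and GPC1, a heparan sulphate proteoglycan, at 133.8 against 70.3 CPM (0.93, adjusted p = 1.99e-31). Under neratinib FGFRL1 was at 46.0 against 18.4 CPM and GPC1 at 104.8 against 55.1 CPM. With neratinib, 7 of the 12 fell and 3 rose in parental cells (median -0.31), and 7 fell and 4 rose in KO-labelled cells (median -0.11). Of all genes, 38.9% fell and 41.8% rose in parental cells, and 38.4% fell and 38.9% rose in KO-labelled cells.

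The heparan sulphate proteoglycans of the syndecan family moved apart from each other. SDC1 fell from 335.6 to 145.4 CPM in parental cells and from 304.1 to 139.3 CPM in KO-labelled cells (log2 fold changes -1.21 and -1.13, adjusted p = 1.12e-39 and 3.61e-38). SDC2 fell in both as well, by 1.45 and by 0.75 on the log2 scale (adjusted p = 1.39e-33 and 7.18e-26), with an interaction of 0.71 (adjusted p = 2.13e-16). SDC4 instead rose from 124.3 to 262.9 CPM in parental cells (log2 fold change 1.08, adjusted p = 3.59e-38), and its interaction was -0.72 (adjusted p = 3.45e-24). In KO-labelled cells SDC4 went from 167 to 214 CPM. FRS3, an adaptor that docks on FGF receptors, rose by 0.65 and 0.78 on the log2 scale (adjusted p = 6.28e-09 and 1.16e-10).

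The promoters of RET, FGFR4 and FGFR3, which fell with neratinib in both genotypes, are shown with that of MET, which rose in both, so that the letters of members moving in opposite directions can be compared. Capitals mark the GC box GGGCGG or its complement CCGCCC, which Sp-family factors are known to bind, and matches that touch each other run together; the last 4 capitals of RET are the start of a match that the end of the printed stretch cuts off. Sequences are from the RefSeq promoter table on GRCh38.p14, end at the RefSeq start site or before the GENCODE 29 gene start, and run 5′ to 3′. TYRO3, which also fell, is not shown because its RefSeq window lies inside the longer GENCODE gene.

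RET promoter, chr10:43076819-43077026, plus strand: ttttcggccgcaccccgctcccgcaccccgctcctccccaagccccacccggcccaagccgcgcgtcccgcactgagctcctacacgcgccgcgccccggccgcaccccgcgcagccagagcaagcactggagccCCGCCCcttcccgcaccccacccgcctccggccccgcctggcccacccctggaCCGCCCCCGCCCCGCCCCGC
FGFR4 promoter, chr5:177086665-177086885, plus strand: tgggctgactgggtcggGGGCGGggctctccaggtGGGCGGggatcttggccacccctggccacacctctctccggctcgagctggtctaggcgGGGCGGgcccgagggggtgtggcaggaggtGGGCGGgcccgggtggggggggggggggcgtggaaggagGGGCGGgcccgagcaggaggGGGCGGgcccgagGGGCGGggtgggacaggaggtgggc
FGFR3 promoter, chr4:1793043-1793292, plus strand: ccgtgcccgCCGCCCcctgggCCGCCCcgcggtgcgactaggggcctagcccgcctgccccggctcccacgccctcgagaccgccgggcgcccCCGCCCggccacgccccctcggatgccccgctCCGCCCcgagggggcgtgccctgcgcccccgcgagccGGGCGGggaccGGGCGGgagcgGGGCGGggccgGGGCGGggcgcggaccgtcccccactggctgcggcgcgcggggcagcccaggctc
MET promoter, chr7:116671946-116672195, plus strand: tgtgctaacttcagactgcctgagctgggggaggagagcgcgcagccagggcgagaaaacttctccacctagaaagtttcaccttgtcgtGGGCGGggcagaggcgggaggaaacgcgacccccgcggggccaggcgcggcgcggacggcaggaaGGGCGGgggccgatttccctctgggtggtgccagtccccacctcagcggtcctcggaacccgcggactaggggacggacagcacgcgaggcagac

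The table matched 9 of the 10 receptors, and FGFR1 was not matched. Counted on both strands of a 300-base window from 250 bases before to 50 bases after the start, the GC box was in 7 of the 9 promoters and in 45% of 35116 promoters. It was found in FGFR2, FGFR3, FGFR4, MET, RET, AXL and TYRO3. RET, FGFR4, FGFR3 and TYRO3 fell with neratinib in both genotypes, and MET rose in both. DDR1 and DDR2, each called higher in a single genotype, had no GC box in the windows searched. The DDR1 window, chr6:30880720-30881019, lies inside the longer GENCODE gene, which starts at 30876421. A link between the motif and the direction of change was not tested. FGFR3 had 8 start positions of the motif, FGFR4 had 7, RET had 5 and MET had 3. GC content was 86.3% for FGFR3, 80.3% for TYRO3, 79.3% for FGFR2, 78.7% for FGFR4 and for RET, and 69.3% for MET. It was 66% for AXL, 62.3% for DDR1 and 41% for DDR2, beside a median of 58.7% over the table.

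Other motifs were less frequent. The AP-1 motif TGANTCA was in TYRO3 and DDR2 (7.71% of promoters), and the E-box CACGTG was in MET (7.26%), just past its start and so outside the printed stretch. The FOXO core TGTTTAC, the palindromic oestrogen response element (GGTCA and TGACC separated by any 3 bases) and the cAMP response element TGACGTCA were in 0 of the 9, beside 3.42%, 0.057% and 1.85% of promoters. A match is a description of letters, and no binding was measured here. A single window was searched for each of the 9 genes, so other promoters of any of them were not covered. For MET, TYRO3 and DDR2 the RefSeq start did not match a GENCODE transcript start.

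MET, the receptor for hepatocyte growth factor, at chr7:116672390-116798386 on the plus strand, rose with neratinib by a similar amount in both genotypes. It measured 40.7, 41.6 and 41.3 CPM and then 52.6, 50.6 and 50.6 CPM in parental cells, and 51.9, 50.7 and 48.4 CPM and then 64.7, 63.7 and 64.6 CPM in KO-labelled cells. The KO libraries in DMSO overlapped the parental libraries under neratinib, and other pairs of groups did not overlap. The log2 fold changes with neratinib were 0.32 (SE 0.032, adjusted p = 4.38e-12) and 0.35 (SE 0.030, adjusted p = 4.50e-14), which is 1.25-fold and 1.28-fold. The genotype difference was 1.22-fold in DMSO and 1.25-fold under neratinib (adjusted p = 8.60e-11 and 6.61e-13).

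The MET ligand HGF had 1, 2, 0 and 0 counts in the 4 groups and was not tested. MST1R, the receptor most like MET, fell from 13.6 to 8.39 CPM in parental cells and from 14.9 to 10.1 CPM in KO-labelled cells (log2 fold changes -0.68 and -0.55, adjusted p = 4.16e-13 and 6.97e-11), while MET rose. Its ligand gene MST1 rose by 1.50 and 1.73 on the log2 scale (adjusted p = 2.49e-26 and 3.51e-27), although near-identical copies of MST1 make its count uncertain. Matriptase, encoded by ST14 and known to activate the HGF precursor, fell by 0.45 on the log2 scale in KO-labelled cells (adjusted p = 3.43e-23). In parental cells ST14 went from 202.4 to 136.0 CPM.

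GAB1, a docking protein that binds MET, rose from 20.3 to 45.8 CPM in parental cells and from 20.1 to 42.7 CPM in KO-labelled cells (log2 fold changes 1.17 and 1.08, adjusted p = 2.21e-29 and 1.16e-27). ITGB4, an integrin that associates with MET, fell by 0.98 on the log2 scale in parental cells (adjusted p = 1.62e-27), and its interaction was 0.64 (adjusted p = 1.35e-14). In KO-labelled cells ITGB4 went from 56.4 to 44.5 CPM. Of 12 listed MET ligand, activator, inhibitor and partner genes 10 were tested, and 5 rose and 5 fell with neratinib in parental cells, with a median log2 fold change of 0.04, beside 41.8% and 38.9% of all genes. In KO-labelled cells 4 rose and 5 fell (median -0.02), beside 38.9% and 38.4%.

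TYRO3, a TAM receptor at chr15:41557675-41583586 on the plus strand, measured 17.1, 17.3 and 15.7 CPM in parental DMSO libraries and 7.61, 8.25 and 7.04 CPM after neratinib. In KO-labelled cells it measured 6.89, 6.73 and 7.05 CPM in DMSO and 4.41, 4.59 and 4.75 CPM after neratinib. Parental DMSO libraries were the highest, KO neratinib libraries the lowest, and the groups in between overlapped. Neratinib lowered TYRO3 by 2.20-fold in parental cells (log2 fold change -1.14, SE 0.063, adjusted p = 9.00e-21) and by 1.50-fold in KO-labelled cells (-0.59, SE 0.084, adjusted p = 3.73e-08). The interaction was 0.55 (SE 0.11, adjusted p = 3.35e-05). TYRO3 was 2.43-fold lower in KO-labelled cells in DMSO and 1.66-fold lower under neratinib (log2 fold changes -1.28 and -0.73, adjusted p = 6.77e-22 and 1.33e-10). Of its 50-base exon windows 5.43% also occur in transcripts of other genes, among them repeats and a TYRO3 pseudogene, so some of its reads could have been assigned elsewhere.

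MERTK, the remaining TAM receptor, rose with neratinib while TYRO3 fell. Its levels were 7.05, 5.80 and 6.23 CPM and then 13.1, 13.4 and 13.9 CPM in parental cells, and 2.89, 2.46 and 2.88 CPM and then 3.67, 3.52 and 3.69 CPM in KO-labelled cells. KO-labelled libraries lay below parental ones in both treatments. The rise was 1.08 on the log2 scale in parental and 0.41 in KO-labelled cells (adjusted p = 2.44e-18 and 0.00102), with an interaction of -0.67 (SE 0.13, adjusted p = 5.16e-05). MERTK was lower in KO-labelled cells by log2 fold changes of -1.22 in DMSO and -1.89 under neratinib (adjusted p = 5.17e-15 and 1.10e-24).

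GAS6, the ligand that TAM receptors share, was higher in KO-labelled cells, at 5.70, 5.62 and 5.49 against 3.35, 3.87 and 2.98 CPM in DMSO and at means of 7.67 against 4.35 CPM under neratinib (log2 fold changes 0.72 and 0.82, adjusted p = 9.62e-09 and 2.12e-11). It rose with neratinib by 0.35 and 0.45 on the log2 scale (adjusted p = 0.00197 and 4.38e-06). PROS1, which encodes protein S, had 8, 10, 6 and 13 counts in the 4 groups and was not tested.

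AXL, a TAM receptor at chr19:41219203-41261766 on the plus strand, was close to the limit of detection. It had 5, 4 and 3 counts in parental DMSO libraries, 28, 16 and 13 in parental neratinib libraries, 2, 0 and 26 in KO DMSO libraries, and 7, 2 and 5 in KO neratinib libraries. It passed the filter on low counts through the 3 parental neratinib libraries and replicate 3 of the KO group in DMSO. That filter makes a difference between the parental groups likely in itself. In parental cells each neratinib library lay above each DMSO library, and the log2 fold change was 2.18 (SE 0.63, adjusted p = 0.00154). The summed counts, 57 against 12, gave a ratio of 4.65 after scaling (95% counting interval 2.46 to 9.51). This call was lost in DESeq2, with an adjusted p of 0.0948.

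Among KO-labelled cells the direction of AXL turned on 1 library. With the 3 DMSO libraries, neratinib gave 14 counts against 28, a ratio of 0.518 (95% counting interval 0.252 to 1.02) and a log2 fold change of -0.94 (adjusted p = 0.222). Without replicate 3 it gave 14 counts against 2, a ratio of 5.22 (1.2 to 47.3) and a log2 fold change of 2.22 (adjusted p = 0.031). The interaction likewise moved from -3.12 (SE 0.97, adjusted p = 0.00619) to 0.058 (adjusted p = 0.932), and the genotype difference in DMSO from 1.19 (adjusted p = 0.140) to -1.99 (adjusted p = 0.0671).

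Under neratinib AXL was lower in KO-labelled cells (log2 fold change -1.92, SE 0.61, adjusted p = 0.00422), a contrast that holds no KO library in DMSO. It was -1.93 without replicate 3 of that group, but it was lost in DESeq2 (adjusted p = 0.166) and without KO neratinib replicate 2 (adjusted p = 0.0507). AXL is known as a marker of mesenchymal breast cancer cells, and some mesenchymal markers were higher in replicate 3 of the KO group in DMSO. Of 20 listed markers 0 were at 0 counts in replicate 3, against 7 and 6 in replicates 1 and 2, and their summed level was 165.7 CPM against 154.7 and 153.6 CPM. ZEB2 had 6 counts there and COL1A2 had 9, where replicates 1 and 2 had 0, and FN1 had 81 counts against 39 and 37. These were picked after values were seen, and other markers were not set apart. Over the KO DMSO libraries TWIST1 spanned 18.6 to 19.1 CPM, COL1A1 79.7 to 84.2 CPM and CDH2 2.18 to 2.33 CPM. The summed level of the 20 markers ranged from 140.2 to 146 CPM in parental DMSO, 153.6 to 165.7 CPM in KO DMSO, 203.6 to 206.3 CPM in parental neratinib and 239.1 to 244.6 CPM in KO neratinib libraries. The part of these markers in the AXL values was not tested.

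**Figure D4:**
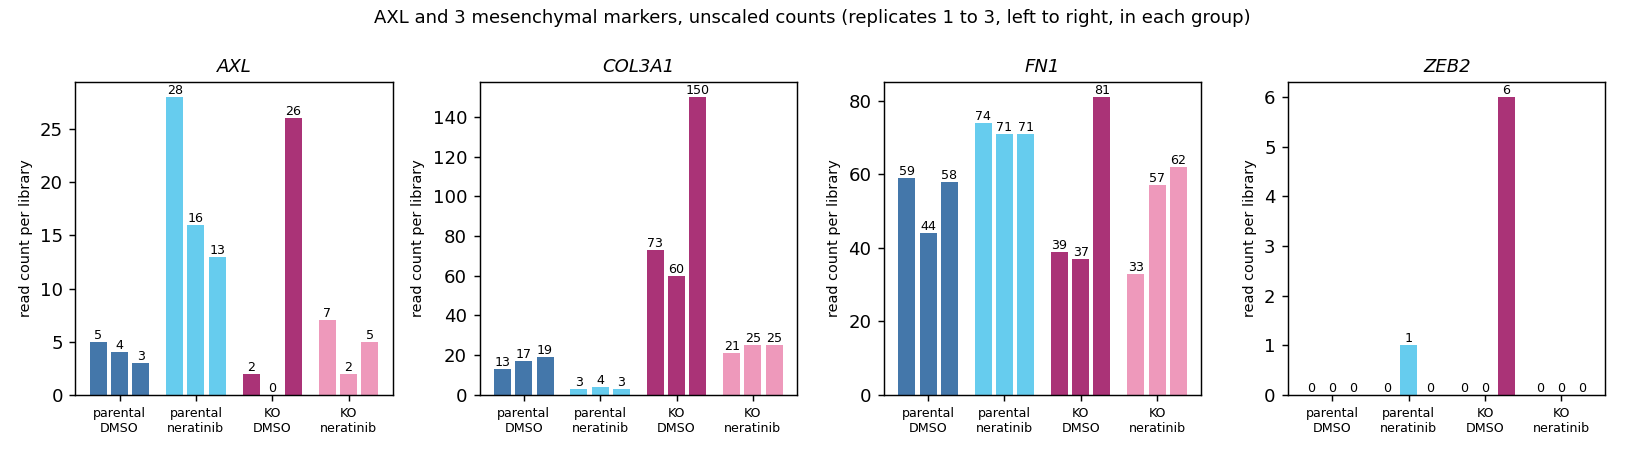
Unscaled read counts per library of AXL and 3 mesenchymal markers, with replicates 1 to 3 from left to right in each group. The third bar of the KO group in DMSO, 26 counts for AXL, stands above the 2 and 0 counts of the other replicates. The 3 markers shown, picked from a longer list, are raised in the same library. Others on that list, such as TWIST1 and COL1A1, are not set apart there.

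DDR1, the collagen receptor of epithelial cells, at chr6:30876421-30900156 on the plus strand, varied least among the 9 receptors above 1 CPM. It measured 392.8, 393.4 and 389.5 CPM in parental DMSO libraries, below the other 3 groups: 441.6, 436.1 and 434.3 CPM in parental neratinib, 431.7, 443.0 and 450.0 CPM in KO DMSO, and 447.6, 435.3 and 440.0 CPM in KO neratinib libraries. Those 3 groups overlapped with each other. DDR1 rose with neratinib in parental cells by 1.12-fold (log2 fold change 0.16, SE 0.019, adjusted p = 3.38e-10) and was 1.13-fold higher in KO-labelled cells in DMSO (0.17, SE 0.019, adjusted p = 5.96e-11). In KO-labelled cells the log2 fold change with neratinib was -0.00 (95% interval -0.04 to 0.04), and it was 0.054 with library totals in place of TMM scaling (adjusted p = 0.00826). The interaction was -0.16 (SE 0.027, adjusted p = 2.43e-06).

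DDR2, the collagen receptor of mesenchymal cells, lies at chr1:162631373-162787400 on the plus strand and was low as well. It measured 1.99, 1.85 and 1.98 CPM and then 2.12, 2.21 and 2.29 CPM in parental cells, and 1.19, 1.25 and 1.26 CPM and then 1.75, 1.58 and 1.51 CPM in KO-labelled cells. The 4 groups did not overlap, with KO-labelled libraries below parental ones in each treatment. The genotype difference was 1.57-fold in DMSO and 1.37-fold under neratinib (log2 fold changes -0.65 and -0.45, adjusted p = 0.000181 and 0.00403). With neratinib the log2 fold change was 0.18 in parental cells (95% interval -0.09 to 0.45, not called) and 0.38 in KO-labelled cells (SE 0.16, adjusted p = 0.0267). The latter call was lost in 6 of 20 alternatives, which include leaving out any 1 of the 3 KO libraries in DMSO (adjusted p = 0.0660, 0.0532 and 0.0553).

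Of 17 listed collagen genes whose products DDR receptors bind, 13 were tested, 2 of them (COL4A1 and COL4A3) admitted through KO-labelled libraries alone. Of the other 11, in KO-labelled cells 7 were higher and 1 lower in DMSO (median log2 fold change 0.97), beside 36% and 35.6% of all genes. Under neratinib 7 were higher and 3 lower (median 0.90), beside 34.7% and 36.9% of all genes. COL5A1 was at 14.4 against 1.43 CPM in DMSO (log2 fold change 3.33, adjusted p = 8.88e-31) and COL4A2 at 6.51 against 0.660 CPM under neratinib (3.30, adjusted p = 1.03e-24). In the other treatment COL5A1 was at 16.3 against 1.70 CPM and COL4A2 at 6.35 against 1.12 CPM. COL3A1 was higher in DMSO by 2.53 on the log2 scale (adjusted p = 1.25e-09), with 73, 60 and 150 counts against 13, 17 and 19. COL5A2 was the 1 that was lower, at 14.7 against 19.8 CPM (-0.43, adjusted p = 1.56e-09). Of the 13, 10 were called between genotypes in DMSO, near the 71.6% of all genes. The same 10 were called without replicate 3 of the KO group in DMSO. They include COL4A1 and COL4A3, whose calls add nothing because KO-labelled libraries alone admitted them. COL1A1 and COL3A1 are also on the list of mesenchymal markers.

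Of the adaptors that many of these receptors share, 29 were tested, 1 of them (SHC4) admitted through neratinib libraries alone. Of the other 28, 10 rose and 14 fell with neratinib in parental cells (median -0.16), beside 41.8% and 38.9% of all genes. In KO-labelled cells 10 rose and 15 fell (median -0.18), beside 38.9% and 38.4%. SRC, a kinase that several of the receptors engage, was at 11.8 CPM in parental DMSO, 3.47 CPM in parental neratinib, 2.35 CPM in KO DMSO and 1.50 CPM in KO neratinib libraries. It thus fell with neratinib (log2 fold changes -1.78 and -0.64, adjusted p = 1.02e-23 and 6.43e-05) and was lower in KO-labelled cells in both treatments (-2.32 and -1.19, adjusted p = 3.58e-26 and 4.10e-11). PLCG1, the phospholipase that FGF receptors bind, was lower in KO-labelled cells under neratinib at 14.4 against 26.5 CPM (log2 fold change -0.89, adjusted p = 7.28e-22). In DMSO PLCG1 was at 26.6 against 58.9 CPM. SHC2, an adaptor of the SHC family, was higher in KO-labelled cells at 70.9 against 13.3 CPM in DMSO (log2 fold change 2.41, adjusted p = 1.96e-39). Under neratinib SHC2 was at 100.3 against 19.9 CPM. GRB7 rose with neratinib from 424 to 2193 CPM in parental and from 627 to 2943 CPM in KO-labelled cells (log2 fold changes 2.37 and 2.23, adjusted p = 9.99e-51 and 1.37e-49). DOK7 fell from 13.1 to 1.03 CPM and from 4.23 to 0.674 CPM (-3.65 and -2.63, adjusted p = 1.01e-31 and 1.59e-20). GRB14, which binds activated receptors through an SH2 domain, rose by 2.25 and 2.31 on the log2 scale (adjusted p = 8.88e-17 and 9.38e-19), and SH2B2 fell by 2.84 and 1.81 (adjusted p = 1.24e-17 and 4.08e-11).

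Of 15 tested genes that remove or dephosphorylate receptors, 7 rose and 2 fell with neratinib in parental cells, beside 41.8% and 38.9% of all genes. In KO-labelled cells 7 rose and 3 fell, beside 38.9% and 38.4%. PTPRB rose most, from 0.653 to 3.24 CPM in parental cells and from 1.14 to 3.94 CPM in KO-labelled cells (log2 fold changes 2.29 and 1.79, adjusted p = 2.07e-16 and 3.91e-15). LRIG1, a membrane protein that restrains several receptor tyrosine kinases, rose from 80.3 to 143.1 CPM in parental cells (log2 fold change 0.83, adjusted p = 7.09e-32). In KO-labelled cells LRIG1 went from 75.8 to 135.5 CPM. The ubiquitin ligase gene CBLB rose from 23.1 to 43.0 CPM in KO-labelled cells (0.89, adjusted p = 2.34e-23). In parental cells CBLB went from 24.2 to 42.5 CPM. Its relative CBL fell in both genotypes (-0.62 and -0.55, adjusted p = 1.30e-13 and 5.40e-10). PTPRJ fell more in both (-1.11 and -0.74, adjusted p = 2.56e-29 and 8.24e-21). In DMSO, CBL and the phosphatase gene PTPRJ were lower in KO-labelled cells, by log2 fold changes of -0.67 and -0.64 (adjusted p = 2.53e-14 and 7.00e-21). Under neratinib CBL was at 8.80 against 13.5 CPM and PTPRJ at 20.1 against 24.2 CPM.

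The make-up of the receptor pool shifted with both factors. The summed level of the 10 genes was 147.9 ± 1.0 CPM per kb in parental DMSO (SD, n = 3), 128.5 ± 2.1 in KO DMSO, 126.2 ± 0.56 in parental neratinib and 111.7 ± 1.4 in KO neratinib libraries. FGFR4 made up 38.4% of it in parental DMSO, 32.5% in parental neratinib, 19.7% in KO DMSO and 13.4% in KO neratinib libraries. DDR1 took 36.5%, 47.8%, 47.4% and 54.5% in the same order, although its own level moved little. FGFR1 went from 5.32% in parental DMSO to 11.8% in KO neratinib libraries and MET from 4.06% to 8.40%, while RET went from 8.66% to 4.86%. The shares describe mRNA, depend on the exon lengths used and were not tested. Protein and phosphorylation were not analysed here.

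**Figure D5:**
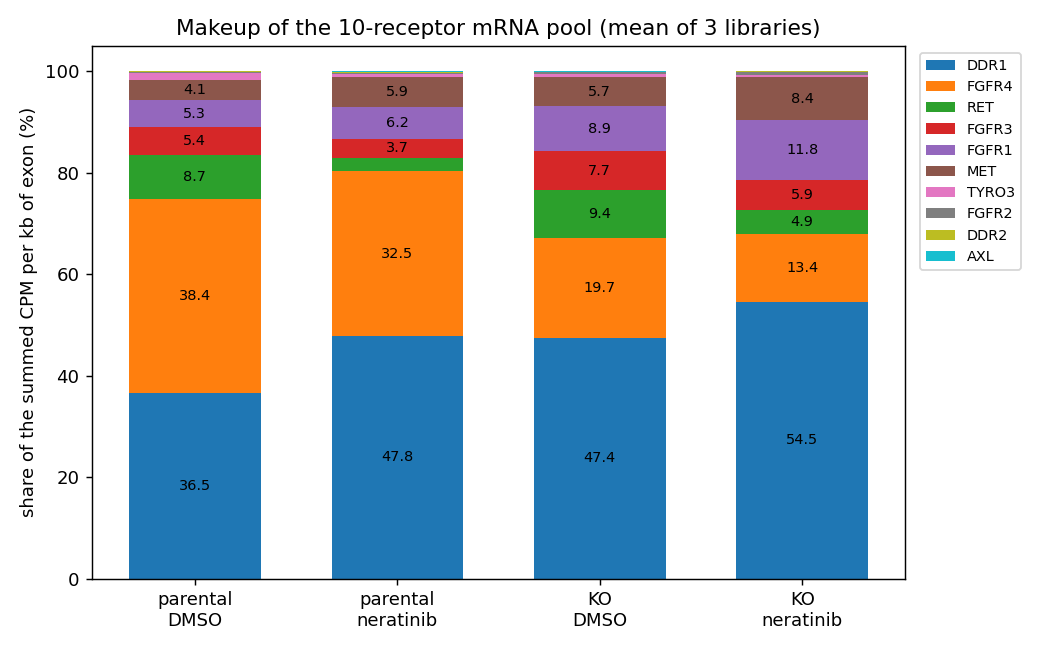
Share of each receptor gene in the summed CPM per kb of exon of the 10 genes, as a stacked bar for each group (mean of 3 libraries). The FGFR4 part shrinks from 38.4% in parental DMSO to 13.4% in KO neratinib libraries, and the DDR1 part grows from 36.5% to 54.5%.

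Over the 10 receptors and the 6 pairs of groups, 46 of 60 pairs of levels passed the test. Of all genes, 71.6% passed between genotypes in DMSO and 71.6% under neratinib. With neratinib, 80.7% passed in parental and 77.2% in KO-labelled cells, so the receptor count is near this background. The share over all genes was not computed for the remaining pairs. AXL, admitted by the filter through libraries where it was high, is included in the count. For RET, FGFR3 and FGFR4 each step in the order of the 4 levels passed. RET ran from parental DMSO through KO DMSO and KO neratinib to parental neratinib libraries, FGFR3 from KO DMSO through parental DMSO and KO neratinib to parental neratinib, and FGFR4 from parental DMSO through parental neratinib and KO DMSO to KO neratinib. For MET, parental neratinib and KO DMSO levels did not differ beyond their spread (adjusted p = 0.441), nor did they for TYRO3 (adjusted p = 0.0705), and for DDR2 parental DMSO and KO neratinib levels did not pass (adjusted p = 0.0778). For AXL no step between neighbours passed (adjusted p = 0.0729, 0.222 and 0.785).

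RET and FGFR4 had the widest ranges of group means among receptors above 1 CPM, 1.92 on the log2 scale for each, followed by TYRO3 with 1.86. By the root-mean-square difference of centred log2 CPM over the 12 libraries, the genes most like RET among 11103 with a mean of at least 5 CPM were MCM10 (0.078), SPAG1 (0.083) and UHRF1 (0.11). MCM10, a DNA replication factor, was at 30.2, 26.7, 8.09 and 12.4 CPM in parental DMSO, KO DMSO, parental neratinib and KO neratinib libraries. The genes most like FGFR4 were ATP8B2 (0.10), ACTR5 (0.12) and PREX1 (0.13). PREX1, a RAC exchange factor, was at 699.7, 301.6, 403.2 and 168.6 CPM in the same order. Likeness here describes 4 groups of libraries that share their treatment and genotype, and many genes can follow such a pattern.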

How the data were processed

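The authors deposited 1 table of read counts, whole numbers per gene for the 12 libraries, with gene symbols. Per the submitters' processing notes, FastQC 0.11.7, STAR 2.7.9, edgeR 3.40.2 and the genome GRCh38 (hg38) were used. Which program and gene models made the counts, and whether strand was used, is not given in the sources used here; without strand, an antisense gene cannot be told apart from the exons it overlaps (67 bases of AXL, 53 of FGFR1). Of 28395 rows, 581 had no gene symbol and were left out; they held 0.0877% to 0.124% of the counts. Columns were matched to samples by name.

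From the counts, edgeR 4.0.16 (R 4.3.3, limma 3.58.1) was run with filterByExpr (a minimum of 0.26 CPM in at least 3 libraries), TMM scaling, a mean for each of the 4 groups over the 12 libraries (8 residual degrees of freedom) and the quasi-likelihood test. Adjusted p-values are Benjamini-Hochberg over 16208 genes, two-sided. Standard errors were derived from the quasi-likelihood statistic. Ratios of summed counts have exact 95% binomial intervals on reads pooled over the libraries of a group. These intervals cover counting error only and leave out the spread between libraries, so they can be too narrow. Reads carry no molecular identifiers. Replicates differed by more than sampling noise (chi-square per degree of freedom 1.36 to 3.41), so none was merged. The code of the test was run on counts simulated from the fitted dispersions, with a small part of the genes changed. Far more genes were called in the data, so that run does not show how well the test suits these libraries. Alternatives were other scalings and filters, DESeq2 1.42.0, limma-voom, a fit of the compared groups alone, a replicate block and leaving out each library.

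The 10 receptors, the gene lists and the tests were chosen with earlier results of these data known. Named genes are the receptors, BRD8, the GFRA co-receptors, HGF, GAS6, PROS1, MST1R, MERTK, and from each list up to 2 called genes per direction and comparison with at least 1 CPM in either group, plus the 3 genes most like RET and FGFR4; their values in other comparisons are given beside these. Genes that reached the minimum in fewer than 3 libraries of one side of a comparison are named where they enter a count. The FGF2, ZEB2, COL1A2 and FN1 values, and the names of such genes, and the scan for genes standing apart in 1 library, were chosen after values were seen.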

Additional observations from a re-analysis of the deposited data

Results flagged for a closer look

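For 7 of the 10 receptors the response to neratinib differed between the genotypes by the interaction test of edgeR's quasi-likelihood fit, adjusted over all genes by Benjamini-Hochberg, where 46.1% of all genes did. The log2 difference, KO-labelled response minus parental response, was 0.78 for RET, 0.55 for TYRO3, 0.22 for FGFR1 and 0.18 for FGFR3. RET, TYRO3 and FGFR3 fell less in the KO-labelled cells, and FGFR1 rose in them while its parental value was -0.01 (not called). The difference was -0.29 for FGFR4, which fell more in KO-labelled cells, and -0.16 for DDR1, which rose in parental cells and stood at -0.00 in the others. For AXL it was -3.12, and it was 0.058 without replicate 3 of the KO group in DMSO. AXL is counted among the 7, although it passed the filter on low counts through that library and the parental neratinib libraries, where it was high.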

How the results depend on the processing

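Of 982 values of the receptors under alternatives, 949 kept their direction and their side of the threshold, 10 lost the call, 7 gained it and 16 changed sign. Under library totals alone the sign changed for neratinib on FGFR1 and FGFR2 in parental cells (0.065 and 0.00090) and on DDR1 in KO-labelled cells (0.054, adjusted p = 0.00826). With a mean of at least 1 CPM it changed for FGFR1 in parental cells (0.0098) and DDR1 in KO-labelled cells (0.024), with the 2 compared groups alone for the latter (0.0011), and without a filter for DDR1 between genotypes under neratinib (-0.0031). In limma-voom it changed for AXL between genotypes in DMSO (-0.66) and with neratinib in KO-labelled cells (0.73), and the AXL interaction was -1.33 (adjusted p = 0.299). Without single libraries DDR1 with neratinib in KO-labelled cells ranged from -0.014 to 0.0067. AXL ranged from -1.99 to 1.87 between genotypes in DMSO, from -1.62 to 2.22 with neratinib in KO-labelled cells and from -3.80 to 0.058 for the interaction; -1.99, 2.22 and 0.058 are without replicate 3 of the KO group in DMSO. Calls changed for AXL, DDR2, FGFR2 and DDR1. Receptors called, AXL included, ranged, leaving out 1 library, from 9 to 10 and from 8 to 9 between genotypes in DMSO and neratinib, stayed at 7 with neratinib in parental cells, and ranged from 6 to 8 in KO-labelled cells and from 6 to 7 for the interaction; without replicate 3 of the KO group in DMSO they were 9, 9, 7, 7 and 6. Other settings gave 9 to 10, 8 to 9, 6 to 7, 6 to 9 and 6 to 7. The pairs of levels past the test ranged from 43 to 51. The cause of these shifts was not tested.

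Replicate numbers are shared between groups, but the samples share only a number. Same-numbered samples correlated between -0.021 and 0.041 in their deviations, with 0 of 18 pairs over 0.1. In 6 of the 18 pairs the sample's own number gave the highest correlation among the 3 replicates of the other group. With the number as a replicate block the receptors called were 9, 9, 7, 7 and 7, and 46 pairs of levels passed, as without it. Depth limits AXL, with 0 to 28 counts per library, and the ligand genes near or below 1 CPM.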

Other observations

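Among 27 further receptor tyrosine kinase genes outside the ErbB, insulin receptor and Eph families, 13 were tested. RYK and PTK7, both linked to WNT signalling, had the highest levels per length in parental DMSO libraries, at 25.9 and 14.9 CPM per kb. KIT was admitted by the filter through DMSO libraries alone; of the other 12, 6 rose and 3 fell with neratinib in parental cells (41.8% and 38.9% of all genes), and 4 rose and 3 fell in KO-labelled cells (38.9% and 38.4%). STYK1, a pseudokinase, rose from 4.28 to 12.6 CPM in parental cells and from 4.50 to 16.7 CPM in KO-labelled cells (log2 fold changes 1.56 and 1.89). FLT4, the receptor for VEGF-C, fell from 1.13 to 0.183 CPM in parental cells (-2.63), and its interaction was 2.03 (adjusted p = 0.000117, edgeR quasi-likelihood test with Benjamini-Hochberg adjustment). LMTK3 was lower in KO-labelled cells in both treatments, at 0.335 against 1.61 CPM in DMSO and 0.438 against 2.80 CPM under neratinib (-2.25 and -2.66).

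The 9 genes that stood apart in replicate 3 of the KO group in DMSO were MTRNR2L7, HMGA2, MMP14, CAVIN1, AXL, LGALS1, CP, SPP1 and SPARC; the scan was made after the AXL counts were seen. LGALS1 had 114 counts there, against 11 and 14 in the other 2 libraries of the group. SPARC had 44 against 2 and 3, HMGA2 had 28 against 0 and 1, and SPP1 had 22 against 0 and 0. KO neratinib replicates 1 and 2 had 1 such gene each, and the other 9 libraries had 0.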
